A study of Mus musculus with 12 samples.

Results

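Apolipoproteins are the protein parts of the lipid particles of blood plasma, and 10 of their genes, Apoa1, Apoa2, Apoa4, Apoa5, Apob, Apoc1, Apoc3, Apoe, Apoh and Apom, are described here in mouse livers and liver tumors. They were chosen by name, as the rows of a count table of 26301 genes whose Entrez identifiers carry these symbols, and all 10 were found. RNA came from 12 libraries in 3 groups of 4. Control libraries were made from non-tumor livers of wild-type adult mice. Libraries labelled DKO came from liver tumors of adult mice with a conditional knockout of E2f7 and E2f8 (Alb-Cre-E2f7 E2f8), and libraries labelled TKO from liver tumors of adult mice that also lacked Rb1 (Alb-Cre-E2f7 E2f8 Rb1). E2f7 and E2f8 encode atypical E2F repressors and Rb1 the retinoblastoma protein, which restrain the cell cycle, so the study asked what their joint loss does in liver. Cre was driven by the albumin promoter, so the deletion is limited to hepatocytes, and blood vessel, immune and stromal cells of a tumor keep the genes. The mice were bred into FVB, and 4 livers were used for each condition, which the p values below compare. As the control livers were free of both tumor and knockout, tumor and genotype cannot be told apart in the comparisons with them.

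In liver, hepatocytes build very low density lipoprotein around apolipoprotein B and export cholesterol and phospholipid on high density lipoprotein built around apolipoprotein A-I. Smaller apolipoproteins move between particles and set how fast triglyceride is removed: apolipoprotein A-V speeds its hydrolysis by lipoprotein lipase, apolipoproteins C-I and C-III slow it, and apolipoprotein E is the ligand by which remnant particles are taken back into hepatocytes. Several of these genes lie side by side in the genome. In the mm9 (NCBI37) build, Apoa1, Apoc3, Apoa4 and Apoa5 share a stretch of chromosome 9, with 2466 bases between Apoa1 and Apoc3, 5059 bases between Apoc3 and Apoa4 and 25173 bases between Apoa4 and Apoa5. Apoc3 is read from the minus strand and Apoa1, Apoa4 and Apoa5 from the plus strand. On chromosome 7, Apoc1 and Apoe lie 3450 bases apart on the minus strand.

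The 250 bases before a transcription start are shown for Apoa4 and Apoa5, neighbours that stood at opposite ends of the fold changes, for Apoa1 of the same cluster, and for Apoa2, a gene of chromosome 1 that differed between the tumor groups at an unadjusted p under 0.05. The windows are those of RefSeq for GRCm38.p6, and each was found exactly once in the mm9 genome, all on the plus strand. Capitals mark TATAAA, the letters of the TATA box, or AGGTCA, a core motif bound by nuclear receptors, on either strand.
Apoa1, chr9:46036463-46036712: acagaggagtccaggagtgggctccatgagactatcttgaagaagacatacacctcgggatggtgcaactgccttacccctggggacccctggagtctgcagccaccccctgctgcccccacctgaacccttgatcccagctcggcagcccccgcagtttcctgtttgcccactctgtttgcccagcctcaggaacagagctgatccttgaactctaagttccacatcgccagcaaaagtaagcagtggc
Apoa4, chr9:46048677-46048926: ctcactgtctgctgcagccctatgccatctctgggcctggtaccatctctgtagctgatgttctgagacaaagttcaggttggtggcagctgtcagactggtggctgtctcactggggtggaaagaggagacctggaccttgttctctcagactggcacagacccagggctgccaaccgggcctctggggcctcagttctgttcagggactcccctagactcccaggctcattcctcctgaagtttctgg
Apoa5, chr9:46076466-46076715: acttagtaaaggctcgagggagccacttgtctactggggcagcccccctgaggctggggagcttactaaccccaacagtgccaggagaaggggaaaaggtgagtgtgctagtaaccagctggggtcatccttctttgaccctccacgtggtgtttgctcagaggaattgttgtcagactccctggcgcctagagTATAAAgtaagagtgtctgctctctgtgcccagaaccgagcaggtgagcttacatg
Apoa2, chr1:173154935-173155184: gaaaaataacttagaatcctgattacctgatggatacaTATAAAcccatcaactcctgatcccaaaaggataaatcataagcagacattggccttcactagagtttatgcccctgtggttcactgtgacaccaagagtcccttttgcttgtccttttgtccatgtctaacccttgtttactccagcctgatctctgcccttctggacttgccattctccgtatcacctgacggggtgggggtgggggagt
In these windows the search found TATAAA in Apoa5, 56 to 51 bases before the start, and in Apoa2, 212 to 207 bases before it, and no AGGTCA. The same letters of Apoa5 lie 31 to 26 bases before another RefSeq start of that gene. Letters were searched anywhere in a window, so a match is not by itself a TATA box. The starts of Apoa1 and Apoa4 lie 50 and 148 bases after the annotated gene start, so part of these windows is annotated gene. RefSeq held windows for 8 of the 10 genes, some with more than 1 start, and none was found for Apoc1 and Apoc3. On either strand, TATAAA was in a window of 4 of the 8 genes (Apoa2, Apoa5, Apob and Apoe) and AGGTCA in a window of 2 (an upstream start of Apoa2, and Apoh), against 14.3% and 15.8% of all 27025 genes with a window. The HNF4 site CAAAGTCCA was in none of the 8 genes and in 0.451% of all genes. The E2F site, written as TTTCCCGC, TTTGGCGC, TTTGCCGC or TTTCGCGC, was in none of the 8 and in 2.16% of all genes.

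Total counts ranged from 9165812 to 16424973 per library. Rb1 was lower in all 4 libraries labelled TKO (3.21 to 5.47 CPM, the count relative to the TMM-scaled size of its library) than in the other 8 (6.52 to 11.3 CPM). E2f7 was at 0.54 to 1.11 CPM in control livers and 0.24 to 1.84 CPM in tumors, and E2f8 at 4.52 to 8.97 and 7.59 to 52.2 CPM, but counts over a whole gene do not separate the deleted exons from the rest and so do not check the deletion. All 20 hepatocyte markers were present in every library, the lowest value being 120 CPM, for Asl. Their summed level, albumin included, was 150070 to 196359 CPM in control livers, 189792 to 457480 in DKO and 78728 to 332460 in TKO tumors. Y-linked genes were present with Xist at no more than 0.46 CPM throughout, so all libraries were of male tissue by their RNA. In bulk tissue, fewer hepatocytes and less RNA per hepatocyte cannot be told apart.

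Each of the 10 genes took between 0.0110% (Apoa4 in TKO 3) and 1.64% (Apoa1 in TKO 2) of the counts of a library. Together they took 2.43% of the counts in the library with the lowest share, TKO 4 (Wilson 95% interval 2.42% to 2.44%), and 3.58% in that with the highest, control 2 (3.57% to 3.59%), intervals that cover counting error only. The mean share was 3.04% ± 0.397 in control livers, 2.74% ± 0.265 in DKO and 3.14% ± 0.492 in TKO tumors (SD, n = 4 each), and the ranges overlapped. Each gene had at least 1362 counts in every library, so the spread between libraries, not counting, set the precision.

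Levels of different genes were compared per kilobase of exon. In control livers Apoa2 (6786 ± 3111 CPM per kb) and Apoa1 (6731 ± 1850 CPM per kb) stood highest and did not differ beyond their spread. Apoe (4359 ± 975), Apoc1 (3238 ± 971) and Apoh (2425 ± 489 CPM per kb) followed, each overlapping its neighbour in the order. Below them came Apoc3 at 1011 ± 310 and Apoa5 at 525 ± 62.2 CPM per kb, each separate from the genes on both sides. Apob (222 ± 50.8) and Apom (188 ± 59.6) overlapped, and Apoa4 (109 ± 5.96 CPM per kb) was the lowest of the 10 and below every value of Apom. In DKO tumors Apoa1 (8343 ± 3546 CPM per kb) stood first and clear of Apoe, Apoa2 was at rank 3 and Apoh stood before Apoc1, and in both tumor groups the lower end of the order was rearranged as well. Apoa4 moved from rank 10 to rank 7 in both tumor groups, at 812 ± 714 CPM per kb in DKO and 433 ± 447 in TKO, and Apoa5 moved from rank 7 to rank 10 in DKO tumors, at 215 ± 168 CPM per kb. With the SD nearly as large as the mean or larger for Apoa4, these ranks describe group means, and Apoa4 and its neighbours overlapped in both tumor groups.

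**Figure D1:**
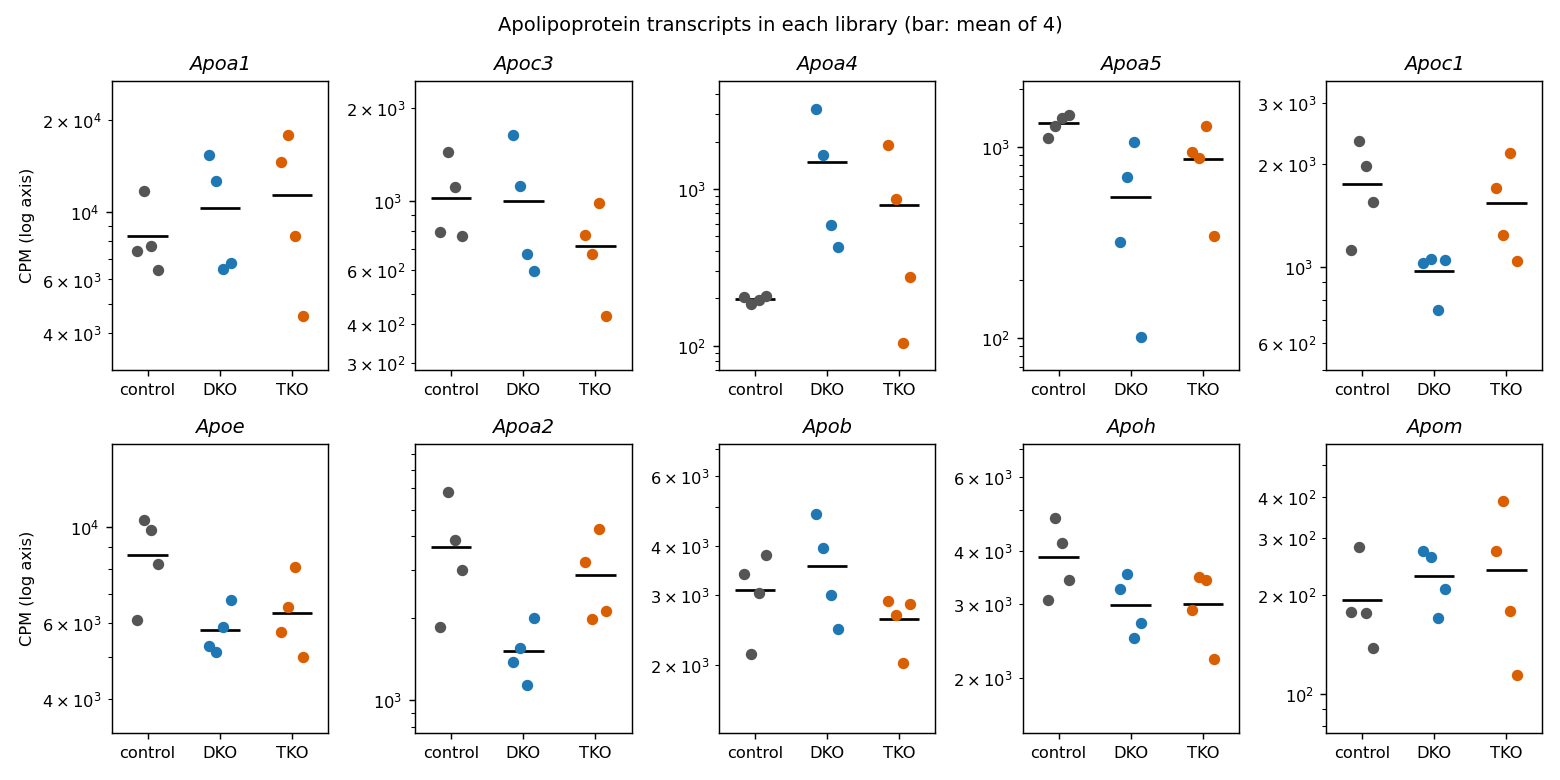
Level of each apolipoprotein gene in each library, in CPM on a log axis (ranges differ between panels); points are libraries and bars the means of 4 in control livers, DKO and TKO tumors. The 4 control values of Apoa4 lie between 184 and 207 CPM while the DKO values lie between 427 and 3244, and the control values of Apoa5 lie above all DKO values.

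Against the control livers, none of the 10 genes passed an adjusted p of 0.05 in edgeR's quasi-likelihood test in DKO tumors, where 2.42% of 13882 genes tested did. The lowest adjusted p was 0.0741, for Apoa4. With DESeq2, the tool named in the study's methods, 3 of 10 passed (Apoa4 upward, Apoa2 and Apoc1 downward), against 9.95% of the genes it tested. The 4 DKO values did not overlap the 4 control values in 3 of 10 genes (Apoa4 higher, Apoa5 and Apoc1 lower), against 16.2% of all genes, and 4 of 10 had an unadjusted p under 0.05 in edgeR, against 24.0% of all genes. In TKO tumors none of 10 passed in edgeR (background 0.0864%) or in DESeq2 (3.32%), none was free of overlap with control livers (7.67%), and 1, Apoa4, had an unadjusted p under 0.05 (16.3%). The median log2 fold change of the 10 genes was -0.20 in DKO and -0.29 in TKO tumors, beside 0.02 in both for all genes tested. For the 20 hepatocyte markers it was -0.26 in DKO and -0.16 in TKO tumors, so a median below 0 was not particular to the apolipoproteins. The 2 comparisons share their control livers.

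**Figure D2:**
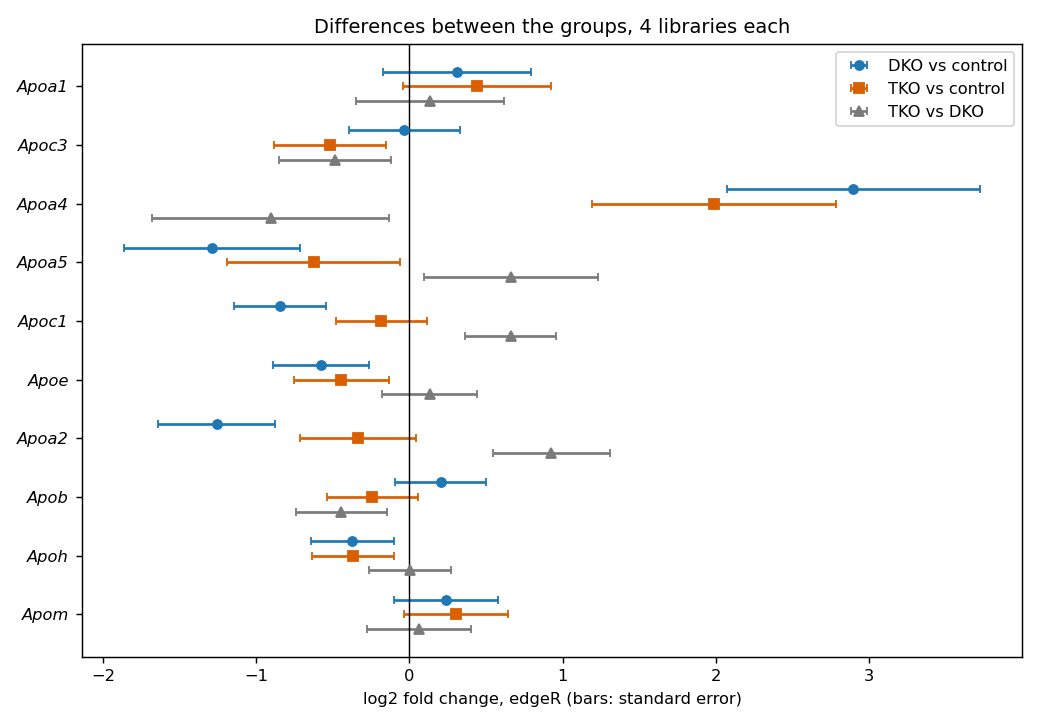
Log2 fold change of each gene by edgeR for DKO against control, TKO against control and TKO against DKO, with bars of 1 standard error; genes are ordered by chromosome 9 cluster, chromosome 7 cluster and the rest. Apoa4 stands apart on the right at 2.90 and 1.99, while Apoa5 and Apoa2 lie furthest to the left for DKO, at -1.29 and -1.26.

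Apob (Entrez 238055, chr12:7984454-8023641) encodes the large structural protein of very low density lipoprotein. Its level was 3393, 2138, 3031 and 3798 CPM in the control livers, 4811, 3953, 3003 and 2470 CPM in DKO tumors and 2898, 2682, 2026 and 2854 CPM in TKO tumors. DKO 1 and DKO 2 were above all control livers and TKO 3 below them, but the groups overlapped. The log2 fold change was 0.20 in DKO (standard error 0.295, edgeR adjusted p = 0.708) and -0.24 in TKO (standard error 0.295, adjusted p = 0.737).

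Apoa1 (Entrez 11806, chr9:46036663-46038549), the scaffold of high density lipoprotein and activator of the cholesterol-esterifying enzyme LCAT, varied more within the tumor groups than between groups. It was at 7461, 11645, 7734 and 6437 CPM in control livers, 15371, 12580, 6508 and 6790 CPM in DKO tumors and 14568, 17834, 8296 and 4543 CPM in TKO tumors. Replicates 1 and 2 of both tumor groups exceeded all control livers, whereas TKO 4 was the lowest of the 12. The log2 fold change was 0.31 in DKO (standard error 0.483, adjusted p = 0.732) and 0.44 in TKO (standard error 0.483, adjusted p = 0.704).

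Apom (Entrez 55938, chr17:35265942-35268995), which carries sphingosine-1-phosphate on high density lipoprotein, followed a like order at a far lower level. Its values were 179, 281, 176 and 138 CPM in control livers, 274, 262, 171 and 209 CPM in DKO tumors, and 274, 387, 179 and 114 CPM in TKO tumors. TKO 2 held the highest and TKO 4 the lowest value, as for Apoa1, and the groups overlapped, with log2 fold changes of 0.24 in DKO and 0.30 in TKO (edgeR adjusted p = 0.699 and 0.714).

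Apoa2 (Entrez 11807, chr1:173155185-173156510), the other main protein of high density lipoprotein, was lower in DKO tumors than in most control livers. It was at 1867, 5823, 3882 and 3005 CPM in control livers, 1388, 1553, 1140 and 2011 CPM in DKO tumors and 3224, 1984, 4235 and 2120 CPM in TKO tumors. All DKO values but DKO 4 were below every control value, and DKO 4 was above only control 1. In DKO tumors the log2 fold change was -1.26 (standard error 0.385), with an adjusted p of 0.0846 in edgeR and 0.00909 in DESeq2. TKO tumors lay within the control range, with a log2 fold change of -0.33 (standard error 0.379, edgeR adjusted p = 0.717).

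Apoa4 (Entrez 11808, chr9:46048779-46051542), a component of chylomicrons and high density lipoprotein that the intestine makes in quantity, showed the largest difference of the 10 genes. In control livers it was nearly constant, at 205, 184, 196 and 207 CPM. In DKO tumors it was at 3244, 1631, 590 and 427 CPM and in TKO tumors at 1901, 867, 104 and 272 CPM. All 4 DKO tumors and 3 TKO tumors were above every control liver, and TKO 3 was below them all. In DKO tumors the log2 fold change was 2.90 (standard error 0.825), with an adjusted p of 0.0741 in edgeR and 0.00251 in DESeq2. In TKO tumors it was 1.99 (standard error 0.797, edgeR adjusted p = 0.247). Over 22 alternatives of processing, the adjusted p for DKO ranged from 0.00251 to 0.187 and was under 0.05 in 5 (DESeq2, voom, scaling without genes over 1% of counts, the 8 libraries alone, and without TKO 3). The log2 fold change stayed between 1.66, with a covariate from sex-linked genes, and 3.20. TKO 3 enters the DKO comparison only through what all libraries share, which is the filter, the scaling, the estimate of spread and the adjustment. Without TKO 3 the edgeR adjusted p was 0.0407. Without TKO 1 the log2 fold change for TKO was 1.06. Of 6 intestinal markers, Alpi, Cdx2 and Lct were at no more than 0.16 CPM in every library, and the summed level of the 6 was 160 to 203 CPM in control livers, 111 to 186 in DKO and 149 to 227 in TKO tumors, most of it from Cdhr5 and Fabp2. The exons of Apoa4 overlap an annotated gene on the opposite strand, Gm10680, and the strand setting of the counting is not given in the sources used here, so reads from the pair cannot be told apart.

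Apoa5 (Entrez 66113, chr9:46076716-46080002), the activator of triglyceride hydrolysis that lies next to Apoa4, stood on the other side of the control livers. It was at 1115, 1288, 1414 and 1468 CPM in control livers, 317, 689, 1059 and 101 CPM in DKO tumors and 936, 876, 1277 and 339 CPM in TKO tumors. All 4 DKO tumors and all TKO tumors but TKO 3 were below every control liver, and DKO 4 was the lowest. For Apoa5 in DKO the log2 fold change was -1.29 (standard error 0.573), and with values from 101 to 1059 CPM within the group the adjusted p was 0.194 in edgeR and 0.105 in DESeq2. In TKO it was -0.62 (standard error 0.566, edgeR adjusted p = 0.630).

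Apoc3 (Entrez 11814, chr9:46041016-46043719), an inhibitor of lipoprotein lipase encoded between Apoa1 and Apoa4, was at 792, 1436, 1107 and 768 CPM in control livers. It was at 1629, 1115, 672 and 595 CPM in DKO tumors and 779, 675, 987 and 425 CPM in TKO tumors. The DKO values lay on both sides of the control range and 2 TKO values below it, and the log2 fold changes were -0.03 in DKO (standard error 0.364, edgeR adjusted p = 0.968) and -0.52 in TKO (standard error 0.365, adjusted p = 0.516). Within the chromosome 9 cluster the DKO tumors therefore differed from control livers by 0.31, -0.03, 2.90 and -1.29 on the log2 scale from Apoa1 through Apoc3 and Apoa4 to Apoa5.

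**Figure D3:**
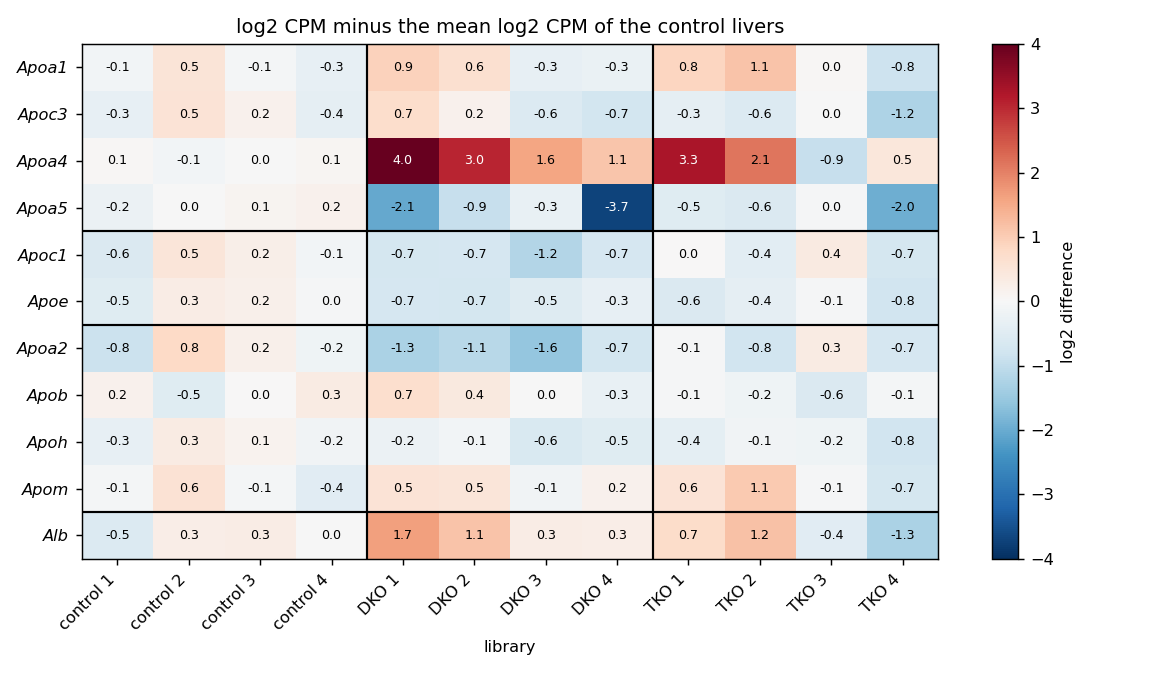
Log2 CPM of each gene in each library minus the mean log2 CPM of the control livers; rows from the top are the chromosome 9 cluster, the chromosome 7 pair, the other apolipoproteins and Alb. Apoa4 is positive and Apoa5 negative in all DKO columns, and Apoa1, Apom and Alb are positive in the columns of DKO 1, DKO 2, TKO 1 and TKO 2.

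Apoc1 (Entrez 11812, chr7:20274833-20278007), which slows the uptake of lipoproteins and activates LCAT, was close to constant in DKO tumors apart from DKO 3. Its level was 1119, 2322, 1969 and 1544 CPM in control livers, 1025, 1052, 747 and 1048 CPM in DKO tumors and 1698, 1241, 2148 and 1037 CPM in TKO tumors. All DKO values were below all control values, but control 1 and the highest DKO value, DKO 2, lay close together. Relative to control livers Apoc1 stood at -0.84 on the log2 scale in DKO (standard error 0.298), with an adjusted p of 0.115 in edgeR and 0.0311 in DESeq2, and -0.18 in TKO (standard error 0.296, edgeR adjusted p = 0.809).

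Apoe (Entrez 11816, chr7:20281458-20284515), its neighbour and the ligand of the LDL receptor family, was at 6093, 10397, 9834 and 8201 CPM in control livers. It was at 5327, 5149, 5870 and 6796 CPM in DKO tumors and 5724, 6537, 8107 and 5018 CPM in TKO tumors. Again all DKO values but DKO 4 were below every control value, and the groups overlapped through control 1. Its log2 fold changes were -0.58 in DKO (standard error 0.310, adjusted p = 0.277 in edgeR and 0.0538 in DESeq2) and -0.44 in TKO (standard error 0.310, edgeR adjusted p = 0.510). Macrophages make apolipoprotein E as well, and the summed level of 12 macrophage markers was 305 to 761 CPM in control livers, 180 to 638 in DKO and 269 to 820 in TKO tumors. Their part in the Apoe values was not tested.

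Apoh (Entrez 11818, chr11:108204668-108275710), the phospholipid-binding plasma protein also called beta-2-glycoprotein I, was at 3057, 4800, 4182 and 3424 CPM in control livers, 3243, 3521, 2482 and 2697 CPM in DKO tumors and 2893, 3466, 3408 and 2218 CPM in TKO tumors. The groups overlapped, and the log2 fold change was -0.37 in both (standard error 0.269, edgeR adjusted p = 0.428 in DKO and 0.533 in TKO). Its exons overlap Prkca on the opposite strand, which had no more than 22.3 CPM in any library.

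Between the tumor groups, which differ by the added loss of Rb1, none of 10 genes passed in edgeR (background 0.00%) or in DESeq2 (0.398%), and none was free of overlap (4.87%). The paper reports a longer tumor latency in mice that lacked only E2f7 and E2f8 than in those that also lacked Rb1. Exact ages of the mice sampled are not given, so Rb1 loss cannot be told apart from age or tumor stage. The lowest adjusted p in edgeR was 0.546. Apoa2 (log2 fold change of TKO against DKO 0.92, standard error 0.382) and Apoc1 (0.66, standard error 0.297) had an unadjusted p under 0.05 in edgeR, 2 of 10 against 9.0% of all genes, and for both all TKO tumors but 1 were above every DKO tumor. Apoa4 stood at -0.91 (standard error 0.774), Apoa5 at 0.66 (0.566), Apoc3 at -0.48 (0.365) and Apob at -0.44 (0.295), and Apoa1, Apoe, Apoh and Apom lay between 0.01 and 0.13. Leaving out 1 library moved Apoa4 between -1.83, without TKO 1, and -0.16, without DKO 1, and Apoa5 between 0.32, without DKO 4, and 1.21, without DKO 3. The median over the 10 genes was 0.10 beside 0.01 for all genes. Their 95% intervals by a normal approximation, not adjusted for the number of genes, were wide, from 0.18 to 1.67 for Apoa2 and from -2.42 to 0.61 for Apoa4. The quasi-likelihood test itself would give wider ones.

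**Figure D4:**
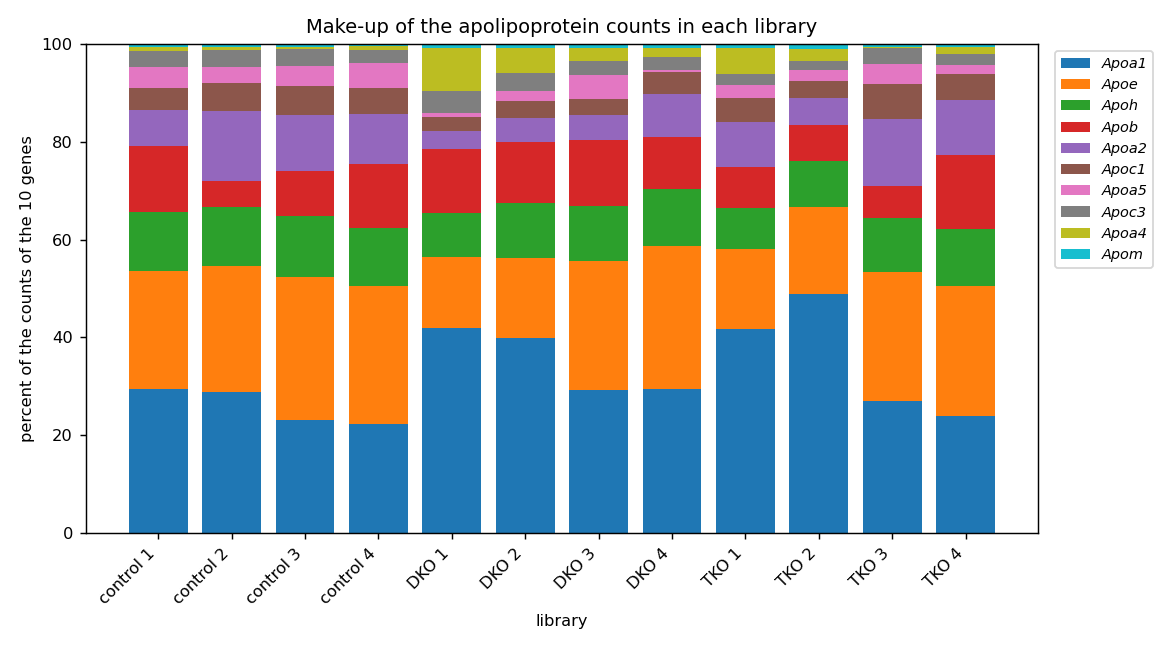
Share of each gene in the counts of the 10 genes in each library, in percent, stacked to 100. Apoa1 takes 22.2% to 29.5% in control livers and 39.9% to 48.8% in DKO 1, DKO 2, TKO 1 and TKO 2, and Apoa4 widens from under 1% in control livers to 1.85% to 8.86% in DKO tumors.

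The make-up of the apolipoprotein counts shows the same values as proportions. Apoa1 and Apoe, the first at 25.9% ± 3.81 and the second at 26.9% ± 2.37 of the 10-gene counts, were nearly equal in control livers (SD, n = 4). In DKO tumors Apoa1 took 35.1% ± 6.78 and Apoe 21.7% ± 7.32, and in TKO tumors 35.4% ± 11.8 and 21.8% ± 5.39. Apoa2 took 10.9% ± 2.93 in control livers, 5.63% ± 2.12 in DKO and 9.91% ± 3.51 in TKO tumors. Apoa4 took 0.642% ± 0.155, 4.63% ± 3.15 and 2.40% ± 2.20 in the same order. Proportions of 1 total are bound to each other, so these shares are not independent of the levels above.

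The genes did not vary as a single block. Over the 12 libraries, 30 of the 45 pairs had a positive Pearson correlation of log2 CPM and 15 a negative one, with a median r of 0.26, and as the libraries differ in group and share their scaling these values only describe the set. The closest pair was Apoa2 and Apoc1, which lie on different chromosomes (r = 0.97, Spearman rho 0.89, n = 12, and r = 0.95 over the 8 tumors). Apoa1 and Apom, also on different chromosomes, came next (r = 0.95, rho 0.90, and r = 0.95 over the 8 tumors). Neighbours were less alike than these closest pairs. Apoc1 and Apoe had r = 0.79 and Apoa1 and Apoc3 0.57, both above the median of 0.26. Apoc3 and Apoa4 had 0.19, and Apoa4 and Apoa5 -0.35. The lowest value was that of Apoa4 and Apoe, at -0.67. Apoa1, Apom and Apoa4 followed albumin (Alb), the most abundant liver transcript, with r = 0.85, 0.82 and 0.79. Apoc3 (0.57), Apob (0.43) and Apoh (0.35) did so less closely, whereas Apoa2, Apoc1, Apoe and Apoa5 did not (-0.28, -0.12, -0.14 and -0.09). Over the 8 tumors r with Alb was 0.87 for Apoa1, 0.89 for Apom, 0.84 for Apoa4, 0.70 for Apoc3, 0.66 for Apoh and 0.63 for Apob. For the rest it lay between -0.40 (Apoa2) and 0.05 (Apoa5). DKO 1, DKO 2, TKO 1 and TKO 2 held the 4 highest values of Apoa1, of Apoa4 and of Alb, with Alb between 152062 and 286273 CPM there and at no more than 111685 CPM in the other 8 libraries.

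**Figure D5:**
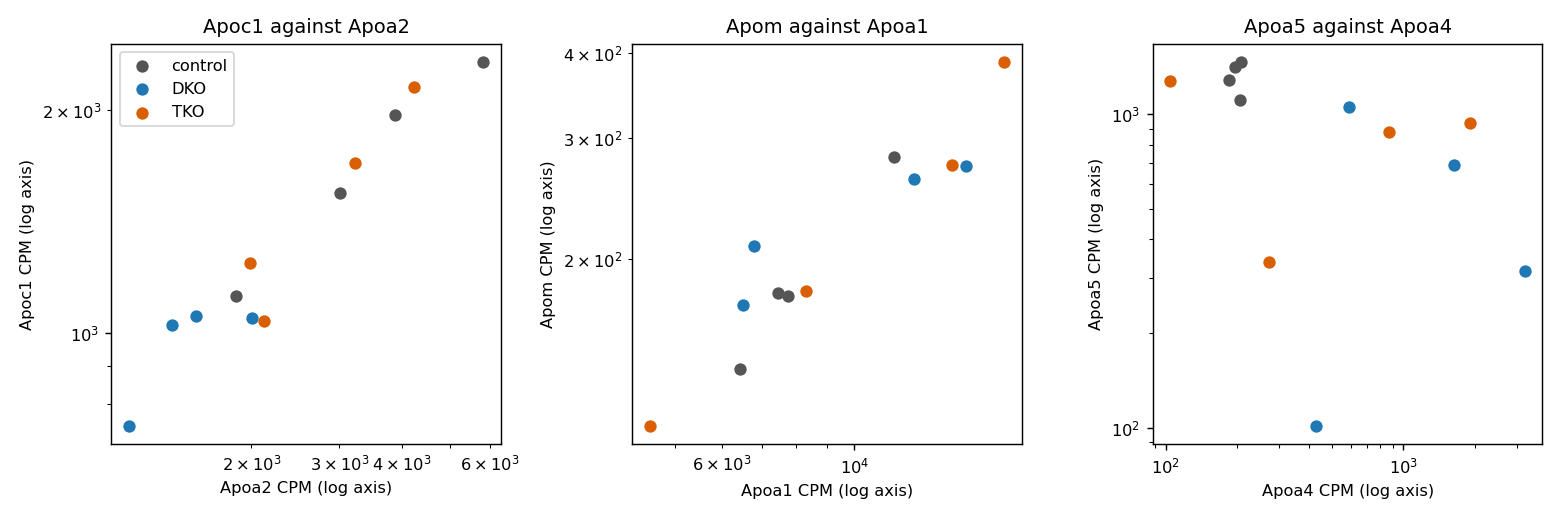
Level of 3 pairs of genes in the 12 libraries, in CPM on log axes, with control livers in grey, DKO in blue and TKO in orange. Apoc1 with Apoa2 and Apom with Apoa1 form narrow bands (r = 0.97 and 0.95), while Apoa5 with Apoa4 shows the 4 control livers close together and the tumors scattered (r = -0.35).

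Spread within groups was also compared. The SD of log2 CPM was larger in TKO tumors than in control livers in 7 of 10 genes, beside 57.0% of all genes tested, and in DKO tumors in 5 of 10, beside 50.2%. Apoa4 had an SD of 0.08 in control livers, 1.34 in DKO and 1.84 in TKO tumors, and Apoa5 0.18, 1.49 and 0.83, whereas the SD of Apoa2, Apoc1 and Apoe in DKO tumors was below that of the control livers.

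The genes whose log2 CPM followed the mean of the 10 most closely over the 12 libraries were Ssr4 (Pearson r = 0.93), Rdh5 (0.92), Snhg17 (0.90), Raet1d (0.90) and Tada2a (0.89). For single genes the most alike were Serpinf2 for Apoa1 (r = 0.95), Drc1 for Apoa4 (0.97), Smad9 for Apoa5 (0.98), Yipf6 for Apob (0.91), Ceacam2 for Apoc3 (0.92), Isoc2a for Apoe (0.95), Mpst for Apoh (0.91) and Nab2 for Apom (0.97), and Apoa2 and Apoc1 were most like each other. These are the highest Pearson r of all genes tested at n = 12 and are given as a description. Spearman rho for the same genes ran from 0.78 (Mpst) to 0.94, and was 0.82 for Smad9 and Raet1d. Some were at low levels, such as Drc1 (0.69 to 10.9 CPM), Snhg17 (2.36 to 4.76) and Tada2a (3.06 to 6.21).

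The genes that assemble, remodel, take up and regulate lipoproteins were counted from 5 lists with 102 of 109 genes tested. In DKO tumors 4 passed in edgeR against control livers, of which 2 were higher (Lpl and Cd36) and 2 lower (Apoc4 and Nr1h4) (background 2.42% of all genes). The median log2 fold change of the 102 was -0.09, beside 0.02 for all genes. DESeq2 called 6 higher and 10 lower (background 9.95%), and 33 had an unadjusted p under 0.05 in edgeR (32.4%, beside 24.0% of all genes). One list, with 17 genes tested, holds other apolipoproteins and related genes that are not apolipoproteins, such as Apobec1, Pon1 and Pon3. It had the lowest median of the 5 in both tumor groups, -0.46 in DKO and -0.53 in TKO. In TKO tumors none of the 102 passed in edgeR, 18 had an unadjusted p under 0.05 (17.6%, beside 16.3% of all genes) and DESeq2 called 1 higher and 3 lower (background 3.32%). Between the tumor groups none passed in either tool, and 14 had an unadjusted p under 0.05 in edgeR (13.7%, beside 9.0% of all genes).

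Lpl encodes lipoprotein lipase, the enzyme that Apoa5, Apoc1 and Apoc3 act on and that adult hepatocytes express little of. It was at 47.1, 23.5, 36.3 and 26.5 CPM in control livers, 422, 422, 141 and 294 CPM in DKO tumors and 225, 602, 123 and 129 CPM in TKO tumors. Every tumor was above every control liver. Lpl differed by 3.26 on the log2 scale in DKO (standard error 0.545, edgeR adjusted p = 0.0292) and 3.01 in TKO (standard error 0.539, adjusted p = 0.0643 in edgeR and 2.5e-06 in DESeq2). The other 11 genes of the plasma remodelling list did not pass in edgeR in DKO tumors, while DESeq2 also called Gpihbp1, which anchors this lipase to capillaries, higher and Angptl4, which inhibits it, lower.

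Cd36, a receptor for fatty acids and oxidized lipoprotein, was at 28.6, 16.7, 24.1 and 34.3 CPM in control livers, 144, 49.6, 108 and 247 CPM in DKO tumors and 49.9, 30.1, 39.4 and 153 CPM in TKO tumors. DKO values were all above control values, and TKO 2 lay within the control range. For Cd36 the log2 fold change was 2.40 in DKO (standard error 0.559, edgeR adjusted p = 0.0488) and 1.39 in TKO (standard error 0.543, adjusted p = 0.238). The other 15 receptor genes tested did not pass in edgeR, while DESeq2 called Asgr2 in DKO and Asgr1 in TKO tumors, the subunits of the asialoglycoprotein receptor, both lower.

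Apoc4, an apolipoprotein gene of the same chromosome 7 region as Apoc1 and Apoe, was at 313, 500, 340 and 335 CPM in control livers, 191, 188, 181 and 232 CPM in DKO tumors and 227, 256, 331 and 217 CPM in TKO tumors. All DKO values were below all control values, with a log2 fold change of -0.91 (standard error 0.196, edgeR adjusted p = 0.0449). Its gene overlaps Apoc2, the activator of lipoprotein lipase, on the same strand, so the split of counts between them is uncertain. Apoc2 was at 73.9, 199, 108 and 131 CPM in control livers, 430, 272, 127 and 43.1 CPM in DKO tumors and 562, 266, 83.1 and 55.2 CPM in TKO tumors. Its 4 highest values were in DKO 1, DKO 2, TKO 1 and TKO 2, the tumors that were also highest for Apoa1 and Apoa4. It did not pass. In TKO tumors it was the highest of the list of other apolipoproteins and related genes, at a log2 fold change of 0.92 (edgeR adjusted p = 0.576). Saa1, an acute-phase apolipoprotein, was the lowest there at -1.86 (adjusted p = 0.181 in edgeR and 0.0436 in DESeq2).

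Nr1h4 encodes the bile acid receptor FXR, a regulator of several apolipoprotein genes. It was at 109, 146, 148 and 118 CPM in control livers, 76.8, 65.0, 93.1 and 53.9 CPM in DKO tumors and 88.5, 88.3, 107 and 81.7 CPM in TKO tumors. Every tumor was below every control liver, TKO 3 only just below control 1, and the log2 fold change in DKO was -0.85 (standard error 0.179, edgeR adjusted p = 0.0425). Hnf4a, a main activator of liver apolipoprotein genes, had 552.6 to 717 CPM in control livers, 627 to 837 in DKO and 541 to 801 in TKO tumors. Of the 26 assembly and secretion genes tested none passed in any comparison in edgeR, and in DKO tumors they ranged from Pcolce2 at -1.16 (edgeR adjusted p = 0.205) to Abcg1 at 1.21 (adjusted p = 0.0604). Mttp, which loads lipid onto apolipoprotein B, was at 335, 389, 381 and 387 CPM in control livers, 455, 552, 342 and 384 CPM in DKO tumors and 496, 385, 382 and 349 CPM in TKO tumors.

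By the same rule, the ends of the lists in TKO tumors against control livers were, among regulators, Hnf4g at 1.2 and Onecut1 at -1.10, among assembly genes Sort1 at 1.06 and Abcg8 at -0.49, and among receptors Lrp2 at -2.26, with edgeR adjusted p between 0.190 and 0.512. Between the tumor groups they were Nr1d1 (2.30), a circadian repressor, and Ppard (-1.26) among regulators. In assembly they were Pcolce2 (1.04) and Abcg1 (-0.73), and in remodelling Angptl4 (0.99). Among receptors they were Stab2 (0.79) and Lrp2 (-2.10). In the list of other apolipoproteins and related genes they were Apoc4 (0.38) and Apobec1 (-0.50), the latter not an apolipoprotein. The edgeR adjusted p of these genes lay between 0.450 and 0.586. None of these passed, and Lrp2, Hnf4g and Pcolce2 were at low levels. The mean of Lrp2 was 2.17 CPM in control livers, 1.94 in DKO and 0.443 in TKO tumors, and that of Pcolce2 3.69, 1.65 and 3.41 CPM. Hnf4g was at a mean of 0.362 CPM in control livers and 0.832 in TKO tumors.

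The 4 calls in the 5 lists remained without TKO 2, TKO 3 or TKO 4, but not without most of the other libraries. In edgeR none was left without control 2, control 3, control 4, DKO 1, DKO 2 or DKO 4, and only 1, Lpl, without TKO 1. Without DKO 3, Lpl, Cd36 and Nr1h4 were left, and without control 1, Lpl and Nr1h4, beside Cideb, which was not called with all libraries. With a covariate from sex-linked genes none was left. This covariate was Xist minus the mean of Ddx3y, Eif2s3y, Kdm5d and Uty in log2 CPM. As all libraries were of male tissue by their RNA, it does not separate the sexes. Of its genes, Kdm5d was at 2.15, 1.11 and 2.29 CPM in DKO 1, DKO 2 and TKO 1. In the other libraries Kdm5d was at 8.46 to 16.5 CPM. Cell type markers moved beside these results in DKO tumors. The summed level of 8 cholangiocyte markers was 44.9 to 64.0 CPM in control livers, 83.4 to 140 in DKO and 52.7 to 76.5 in TKO tumors, and 1 of them, Prom1, passed in DKO, at 1.97 to 3.56 CPM in control livers and 10.5 to 63.5 CPM in DKO tumors. Krt7 and Cftr, both genes of bile duct cells, stayed below 1 CPM in every library. Endothelial markers summed to 189 to 291, 220 to 357 and 234 to 466 CPM and stellate cell and fibroblast markers to 298 to 480, 194 to 650 and 240 to 462 CPM in the same order, with none called. Lymphocyte and neutrophil markers summed to no more than 26.8 CPM. The part of these cells in the apolipoprotein values was not tested.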

How the data were processed

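Poly(A) RNA of 4 control livers, 4 DKO tumors and 4 TKO tumors was sequenced on a SOLiD instrument. The authors aligned reads to mm9 (NCBI37) by BWA, used featureCounts to count genes, and deposited raw counts without normalization; the strand setting and software versions are not given in the sources used here. Groups and replicate numbers come from the labels. Symbols were matched by Entrez identifier (24191 of 26301 rows, 99.4% of counts), and positions are from GENCODE vM1. edgeR 4.0.16 (R 4.3.3) was run with TMM scaling, filterByExpr (13882 genes) and a mean for each group over all 12 libraries, and its quasi-likelihood p values were adjusted by Benjamini-Hochberg over all genes tested. DESeq2 1.42.0, which the study names, and voom of limma 3.58.1 were alternatives, with other scalings, filters, the replicate block, a sex-linked covariate and the omission of each library. Log2 CPM used a prior count of 2. No paired libraries held the same counts. The same-numbered libraries of different groups come from different genotypes, and p values measure the spread between these libraries, 4 livers a condition by the methods. The 10 genes and the lists were chosen with earlier results of these data known. All 10 were named, and list genes were named if called, at most 4 a direction, and otherwise as the highest and lowest of their list; Hnf4a, Mttp, Apoc2 in every library Cideb, Gpihbp1, Asgr1, Asgr2 and single markers were named after their values were seen. The checks used simulated data. One list gene that this rule would name is not reported here.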

Additional observations from a re-analysis of the deposited data

Results flagged for a closer look

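The level of Apoc1 in DKO 3, 747 CPM, stood far from the other 3 DKO tumors at 1025 to 1052 CPM. Its gap to the nearest of them was 0.913 of the range of the group, above Dixon's 95% critical value for 4 samples. Of 30 groups of 4 values examined, 1 was set apart in this way, and chance alone sets apart about 1 in 20. Without DKO 3 the log2 fold change of Apoc1 in DKO tumors against control livers was -0.74 in place of -0.84.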

How the results depend on the processing

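In DKO against control, the count of the 10 genes called, 0 in the main analysis, was 3 with DESeq2, 3 with voom, 1 with the 8 libraries alone, 1 with total counts without genes over 1% as scaling, and 0 to 1 when a library was left out. The count over the 5 lists, 4 in the main analysis, was 16 with DESeq2 (6 higher and 10 lower), 17 with voom (5 and 12), 9 without genes over 1% (7 and 2), 1 with total counts (higher), 0 with the sex-linked covariate and 0 to 5 when a library was left out. In TKO against control the lists had 4 calls with DESeq2, 1 each with total counts, without genes over 1%, with no filter and with voom, and 0 to 1 when a library was left out. Over all genes, the 336 calls in DKO (196 higher, 140 lower) became 1491 with DESeq2, 1804 with voom, 1294 without genes over 1% (1178 and 116), 759 with the 8 libraries alone, 59 with total counts (52 and 7), 8 with the covariate (all higher) and 0 to 651 when a library was left out, 0 without control 2 or control 3. The 12 calls in TKO became 498, 97 and 128 with DESeq2, voom and without genes over 1%, 22 with no filter, 5 with the covariate and 0 to 231 when a library was left out, and DESeq2 made 56 between the tumor groups. The causes of these shifts were not tested. Scaling without genes over 1% moved the median log2 fold change of all genes to 0.27 in DKO and 0.26 in TKO, and total counts moved it to 0.17 in TKO against control and 0.11 between the tumor groups, so small fold changes can turn with the scaling.

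The replicate numbers were tried as a block although the genotypes, and so the mice, differ. Same-numbered deviations correlated between -0.17 and 0.37, and no comparison had every pair above 0.1, although 3 of 4 did between the tumor groups, so the numbers were not taken to pair the samples. With the block, 0 of the 10 genes and 4 list genes were called in DKO, the whole table gave 509 calls in DKO and 1 in TKO, and no call on the 10 genes changed. The labels also carry letter codes, of which b, e and j recur across groups. Their meaning is not given, and no block was fitted for them. Control 2 and control 3, both coded e, were closer (chi-square per degree of freedom 19.9) than the other pairs of control livers (62.7 to 74.3). The cause was not tested.

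The following fold changes, none of which had passed, turned in direction. Apoa1 in DKO was -0.083 with the covariate. Apoc3 in DKO was 0.22 without genes over 1% and -0.38 to 0.17 when a library was left out, and Apoc1 in TKO was 0.058 without genes over 1%. Apom in TKO was -0.034 to 0.54 when a library was left out. Between the tumor groups, leaving out a library gave -0.18 to 0.40 for Apoa1, -0.0063 to 0.23 for Apoe, -0.075 to 0.13 for Apoh and -0.28 to 0.29 for Apom. Apoh there was -0.0045 with DESeq2, -0.0046 with its size factors, -0.014 without genes over 1%, -0.013 with voom, -0.0037 with at least 10 counts in every library, -0.0089 with the block and -0.0030 as a difference of mean log2 CPM, and Apom was -0.056 with the block and -0.059 as that difference. Without albumin in the total, the 10 genes took 3.33% of counts in control livers in place of 3.04%, 3.31% in DKO tumors in place of 2.74% and 3.59% in TKO tumors in place of 3.14%, and the order per kilobase by longest transcript kept 8 of 10 ranks in control livers and all ranks in tumors.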
